A study of Mus musculus with 64 samples.

Results

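The genes that lie around *Cyfip2* on mouse chromosome 11 were examined in *Cyfip2* +/R87C knock-in (KI) mice, which carry the R87C codon change in 1 of their 2 *Cyfip2* copies, and in wild-type (WT) littermates. Members were all genes of the expression table whose annotated start lies within 3 Mb of either end of *Cyfip2* (chr11:46193850-46312859 in GRCm38, minus strand), with *Cyfip2* itself left out. This gave 37 of the 18432 genes in the table. Among the genes of the table the rule used position alone and no measured value, but weaker genes had been left out of the table. Frontal cortex and hippocampus were taken from C57BL/6N mice at postnatal week (PWK) 1, 7, 14 and 28, with 4 KI and 4 WT mice at each age. Both regions from each mouse imply 32 mice for the 64 libraries, but no label links the libraries of a mouse. The change is a germline one, and no drug or other agent was named in the labels. How the allele was made, and how many generations it was crossed, is not given in the sources used here.

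*Cyfip2* encodes a subunit of the WAVE regulatory complex, which controls branching of actin filaments in neurons and other cells. A gene edited in the germline stays linked to the DNA around it. Neighbouring genes can therefore differ from those of littermates when the edit or anything left with it alters local control of transcription (a cis effect), or when flanking DNA of another origin travels with the edited allele (a passenger effect). The altered DNA is carried at every age, though its effect on a neighbour need not show at each of them. The genotype effect on each neighbour was therefore followed through all 4 ages and in both regions.

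The neighbourhood holds several kinds of genes. The window contained 115 annotated genes, 55 of them protein coding, and the 37 in the table comprised 34 protein-coding genes and 3 non-coding genes (*Gm12144*, *Gm4926* and *Gm16170*). The other 78, among them 21 protein-coding genes and all 7 olfactory receptor genes of the window, were not in the table. 17 members lay on the side of lower coordinates, 19 on the side of higher coordinates, and 1, *Fndc9*, lay inside *Cyfip2*. 10 members lay within 500 kb of *Cyfip2*, and 23 were 2 to 3 Mb away. At the far end of the higher side lies a cluster of immunity-related GTPase genes, whose products are induced by interferon and attack the vacuoles of intracellular pathogens.

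3 stretches of sequence place the edit and the members that the results turn on. The first is the WT coding sequence around codon 87 of *Cyfip2*, from exon 4 into exon 5 of 31 (the codon is at chr11:46286091-46286093, minus strand, GRCm38), with the edited arginine codon in capitals. All 3 consensus coding transcripts share this codon. The others are RefSeq promoters of 300 bases, from 250 bases before to 50 after the gene start (GRCm38.p6): that of *Fndc9* (chr11:46235307-46235606, plus strand), the member with the largest differences, and that of *Irgm1* (chr11:48871371-48871670, minus strand), a GTPase gene.
Cyfip2 codon 87: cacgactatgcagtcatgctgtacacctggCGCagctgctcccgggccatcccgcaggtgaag
Fndc9 promoter: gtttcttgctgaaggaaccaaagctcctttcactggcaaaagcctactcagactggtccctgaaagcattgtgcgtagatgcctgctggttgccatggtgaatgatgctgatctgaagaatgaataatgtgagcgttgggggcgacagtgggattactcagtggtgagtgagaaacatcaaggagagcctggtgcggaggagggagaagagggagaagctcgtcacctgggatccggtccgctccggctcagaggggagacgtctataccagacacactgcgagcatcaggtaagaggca
Irgm1 promoter: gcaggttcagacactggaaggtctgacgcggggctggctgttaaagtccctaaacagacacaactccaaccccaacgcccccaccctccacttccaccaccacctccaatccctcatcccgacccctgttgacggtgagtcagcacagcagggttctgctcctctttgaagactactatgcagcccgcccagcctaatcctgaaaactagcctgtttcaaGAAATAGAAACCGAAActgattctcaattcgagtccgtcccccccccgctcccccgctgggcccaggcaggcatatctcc
The capitals in the *Irgm1* promoter mark 2 overlapping matches to the interferon-stimulated response element, searched on both strands as a pair of GAAA runs set apart by any 2 bases. They began 30 and 24 bases before the gene start. This motif was found in 3.44% of the 32851 mouse promoters and in 6 of the 42 promoters of the 30 members that matched the RefSeq table, among them those of 4 of the 7 GTPase members. The *Fndc9* promoter held none of the 5 motifs searched, which were this element, the gamma-activated sequence TTCNNNGAA, the AP-1 site TGANTCA, the cAMP response element TGACGTCA and the TATA box TATAAA. Such matches describe the letters of these windows and not binding.

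*Fndc9* (chr11:46235531-46239872, plus strand) lies within intron 23 of *Cyfip2*, on the opposite strand and 46.2 kb from codon 87. Its transcripts shared no 31-base word with those of any other gene. The libraries were made with a stranded kit, named as an mRNA kit in the labels and as a total RNA kit in the study's methods, and total RNA holds more unspliced RNA. Which of the kits applies, and whether the counting used strand, could not be settled, so reads of unspliced *Cyfip2* RNA across this intron cannot be told apart from *Fndc9* reads on that point. The levels of *Cyfip2* are therefore given beside those of *Fndc9*. In cortex at PWK 28, *Cyfip2* was at 34022, 35187, 35279 and 34418 normalized counts in WT and at 21597, 30055, 26765 and 24490.4 in KI libraries. Every KI library was below every WT library, with a log2 change of -0.44 (SE 0.09, limma adjusted p = 0.0058). At PWK 14 in cortex the log2 fold change was -0.33 (adjusted p = 0.0539), and in hippocampus no week passed the threshold. At PWK 7 in cortex the order was the opposite, with every KI library (37662 to 38975) above every WT library (34519 to 36129). That difference did not pass the test (log2 0.11, limma adjusted p = 0.416). A normalized count is the estimated read count of a gene scaled by the authors between libraries, and fold changes were taken from log2 of this value plus 1, so that those of weak genes come out too small. The libraries summed to between 29.2 and 32.6 M normalized counts, so depth differences had already been scaled out.

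The regions were told apart by their markers. *Prox1*, a transcription factor of the dentate gyrus, was between 2980.2 and 6272 in hippocampal and between 360.4 and 679 in cortical libraries, and the cortical layer gene *Cux2* was between 2794 and 6214 in cortical and between 638 and 1375 in hippocampal libraries. In bulk tissue, fewer cells of a type and less RNA per cell cannot be told apart. 1 library stood apart in the hippocampus at PWK 14, that of KI replicate 1, where the summed astrocyte markers (5 of 5 in the table) reached 192957 against 73320 to 84270 in the other KI and 41003 to 45257 in the WT libraries. Its summed microglial markers (6 of 6) reached 19612, against 7227 to 10142 in the other KI and 6585 to 8218 in the WT libraries. Of the 5 T cell markers listed, 1 was in the table.

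No member passed the test at PWK 1 or PWK 7. In cortex, 0 of 37 members were called at PWK 1 (0.00546% of all genes, limma, Benjamini-Hochberg adjusted p under 0.05) and 0 of 37 at PWK 7 (0.00545% of all genes). In hippocampus, 0 of 37 were called at PWK 1 (0.0109% of all genes) and 0 of 37 at PWK 7 (0.0218% of all genes). Without adjustment, a p under 0.05 was found in cortex for 2 members at PWK 1 (5.41% of members and 5.27% of all genes) and 7 at PWK 7 (18.9% and 8.05%), and in hippocampus for 3 (8.11% and 5.46%) and 4 (10.8% and 6.22%). The lowest adjusted p of any member was 0.471. The median absolute log2 fold change of members was above that of all genes at these ages, at 0.153 against 0.0753 and 0.145 against 0.0771 in cortex and at 0.116 against 0.0684 and 0.131 against 0.0791 in hippocampus. The median SE of members was also above that of all genes, at 0.157 against 0.0971 and 0.132 against 0.0909 in cortex and at 0.122 against 0.0891 and 0.152 against 0.0993 in hippocampus, and its part in the larger changes was not tested. The genotypes were fully separated, with no overlap of libraries, for 3 and 2 members in cortex (3.15% and 4.62% of all genes) and for 3 and 1 members in hippocampus (3.26% and 3.87% of all genes).

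The mean effect over PWK 1 and 7, fitted on the 16 libraries of a region, gave the narrowest intervals for these ages. It passed the test for 0 of 37 members in cortex (0.0163% of all genes) and 0 of 37 in hippocampus (0.0272% of all genes). The 95% intervals reached, at the median member, 0.275 to either side in cortex and 0.231 in hippocampus on the log2 scale. A log2 effect of -1, which the loss of 1 of 2 active copies would give, was outside the interval for 35 members in cortex and 36 in hippocampus. The interval lay within -0.5 and 0.5 for 22 and 26 members and within -0.25 and 0.25 for 15 and 14. For the others, effects beyond these bounds were not excluded, whether through a wide interval or an estimate away from no effect. Without adjustment, 8 members in cortex (21.6% of members and 8.93% of all genes) and 4 in hippocampus (10.8% and 5.73%) had a p under 0.05. Those in cortex within 500 kb of *Cyfip2* were *Fndc9* (log2 -0.43, limma adjusted p = 0.361), *Havcr2* (log2 -0.33, adjusted p = 0.512) and *Adam19* (log2 0.15, adjusted p = 0.368).

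**Figure D1:**
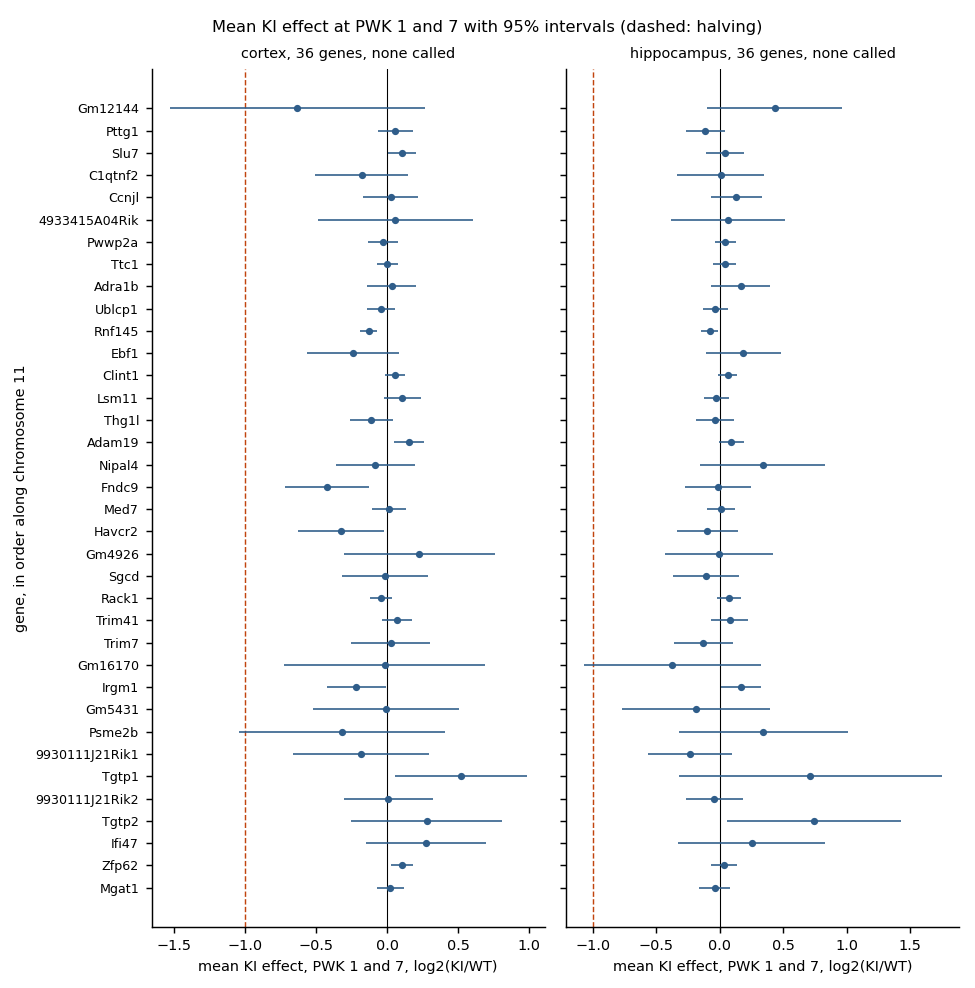
Mean log2 fold change, KI against WT, over PWK 1 and 7 (horizontal axis) with its 95% interval for 36 of the 37 members in order of position, in cortex and hippocampus. No member passed the adjusted test, and the widest intervals belonged to weak genes.

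The lowest adjusted p of the mean over PWK 1 and 7 was that of *Rnf145*, which encodes a ubiquitin ligase of the endoplasmic reticulum involved in sterol homeostasis (1628 kb from *Cyfip2*). In cortex at PWK 1 it was at 3759.9, 3919, 3798 and 3899 in WT and at 3370.3, 3406, 3447 and 3580.4 in KI libraries. Every KI library was below every WT library, with a log2 fold change of -0.16 (adjusted p = 0.908). At PWK 7 the groups overlapped, and the mean log2 effect over both ages was -0.13 for cortex (adjusted p = 0.135) and -0.08 for hippocampus (adjusted p = 0.798).

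At PWK 14 and 28, members passed the test in every comparison. In cortex, 3 of 37 members were called at PWK 14 (5.18% of all genes) and 5 of 36 at PWK 28 (22.2% of all genes), where *Gm4926* fell below the filter on low values. In hippocampus, 8 of 37 were called at PWK 14 (15.6% of all genes) and 4 of 37 at PWK 28 (15.8% of all genes). The share of members called was thus 8.11%, 13.9%, 21.6% and 10.8%, above that of all genes at PWK 14 and below it at PWK 28, with small numbers behind each. The genotypes did not overlap for 6 members in cortex at PWK 14 (14.2% of all genes), 5 at PWK 28 (25.8% of all genes), 9 in hippocampus at PWK 14 (23.8% of all genes) and 5 at PWK 28 (21.5% of all genes). Of the 20 calls, 14 were higher and 6 lower in KI. The median absolute log2 fold change of members was 0.170 in cortex at PWK 14, 0.211 at PWK 28, 0.249 in hippocampus at PWK 14 and 0.182 at PWK 28, beside 0.138, 0.219, 0.214 and 0.161 over all genes.

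**Figure D2:**
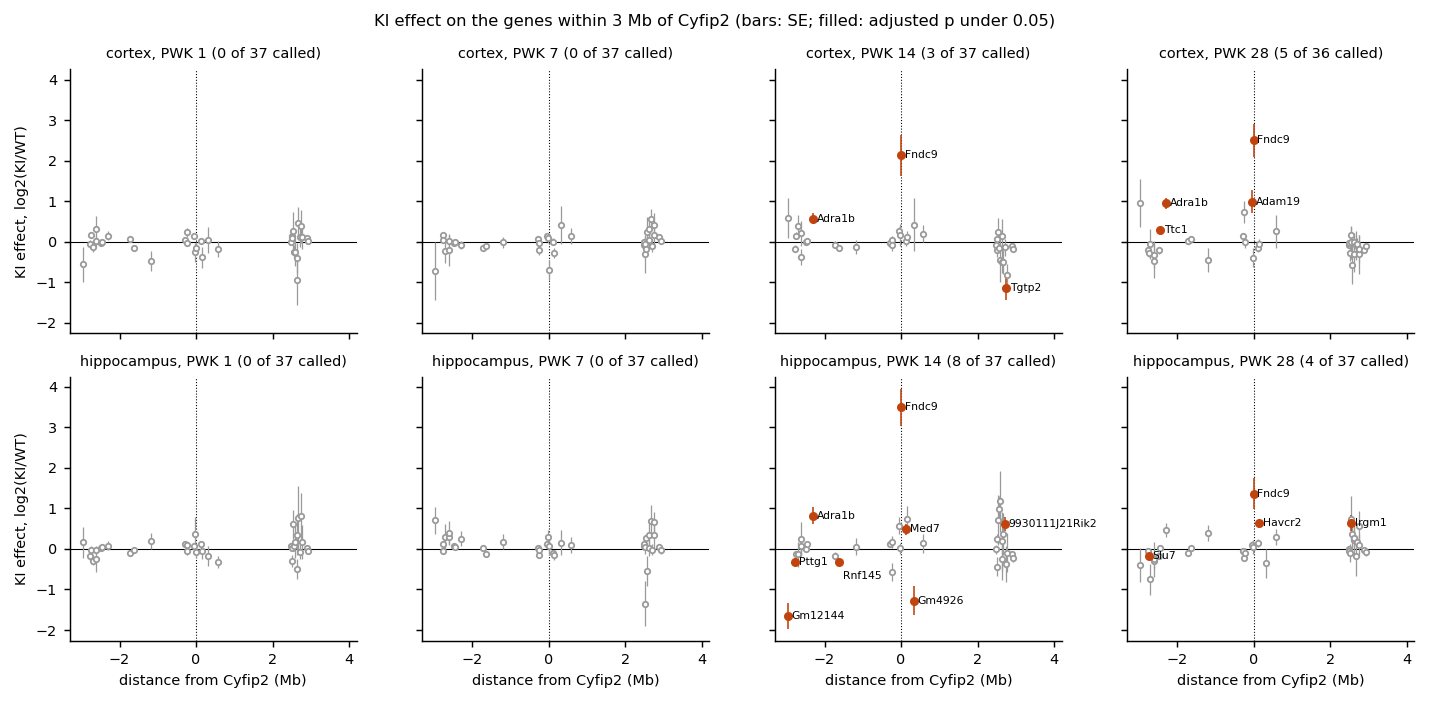
Log2 fold change, KI against WT, of 36 of the 37 members (vertical axis) by its distance from *Cyfip2* in Mb (horizontal axis), in a panel for each region and week, with called members marked. The counts above the panels include the member not drawn. All calls are at PWK 14 and 28, and in each of those 4 panels the largest difference belongs to *Fndc9* at distance 0.

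Calls were found close to *Cyfip2* and far from it. Of the 10 members within 500 kb, 1 was called in cortex at PWK 14 (10% against 5.18% of all genes), 3 of the 9 tested at PWK 28 (33.3% against 22.2%), 3 in hippocampus at PWK 14 (30% against 15.6%) and 2 at PWK 28 (20% against 15.8%). Of the 23 members at 2 to 3 Mb, 2 were called at each age in cortex (8.7%), 4 in hippocampus at PWK 14 (17.4%) and 2 at PWK 28 (8.7%). Of the 4 members in between, 1 was called, in hippocampus at PWK 14. In cortex the members within 500 kb had a median absolute log2 fold change of 0.15 at PWK 14 and 0.392 at PWK 28, beside 0.202 and 0.210 for those at 2 to 3 Mb. For hippocampus these medians were 0.523 and 0.185 beside 0.249 and 0.182. The nearer members had the larger median in all of these but cortex at PWK 14, by the most in cortex at PWK 28 and hippocampus at PWK 14, and the difference between the distance classes was not tested.

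*Fndc9* encodes a small protein with a fibronectin type III domain. It was called in all 4 comparisons at PWK 14 and 28. In cortex at PWK 14 it was at 30.4, 44.8, 33.7 and 36.8 in WT and at 587, 156, 98.7 and 75.4 in KI libraries. The lowest KI library was above the highest WT library, with a log2 change of 2.14 (SE 0.51, adjusted p = 0.0363). At PWK 28 it was at 96.5, 89.5, 116 and 90.6 in WT and at 1401, 286, 699 and 345 in KI cortex. Again no KI library overlapped the WT libraries, and the KI mean was 5.66-fold higher on the log scale (log2 2.50, SE 0.41, adjusted p = 0.00218).

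The difference in *Fndc9* was also present in hippocampus. At PWK 14 it was at 42.8, 43.7, 44.5 and 9.79 in WT and at 343, 229, 519.8 and 375 in KI libraries, an 11.3-fold difference (log2 3.49, SE 0.46, adjusted p = 0.00204). WT replicate 4 was far below the other WT libraries, and every KI library was above all of them. At PWK 28 it was at 67.3, 25.4, 34.3 and 58.9 in WT and at 216, 75.1, 129 and 76.8 in KI libraries. The groups again did not overlap, with a log2 change of 1.36 (SE 0.38, adjusted p = 0.0314).

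At the younger ages *Fndc9* showed no such rise. At PWK 1 in hippocampus it ranged from 176 to 204 in WT and from 139.6 to 232 in KI libraries, and at PWK 7 from 19.5 to 33.0 in WT and from 24.1 to 33.3 in KI. At PWK 7 in cortex it was at 38.4, 30.0, 39.2 and 38.2 in WT and at 25.5, 22.8, 14.2 and 28.3 in KI libraries. Every KI library was below every WT library at that age, the opposite order to PWK 14 and 28, but the difference did not pass the test (log2 -0.69, adjusted p = 0.471). The genotype effect on *Fndc9* differed between weeks in both regions (adjusted p = 0.000197 in cortex and 2.5e-05 in hippocampus). Leaving out 1 library raised the adjusted p to as much as 0.105 in cortex at PWK 14 (KI replicate 2 or any 1 WT replicate) and 0.0804 in hippocampus at PWK 28 (KI replicate 1 or 3, or WT replicate 2 or 3). The cortical call at PWK 14 was also lost without the filter on low values (adjusted p = 0.0563) and with a robust estimate of the spread (adjusted p = 0.0689). The cortical call at PWK 28 and the hippocampal call at PWK 14 held in every alternative run.

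**Figure D3:**
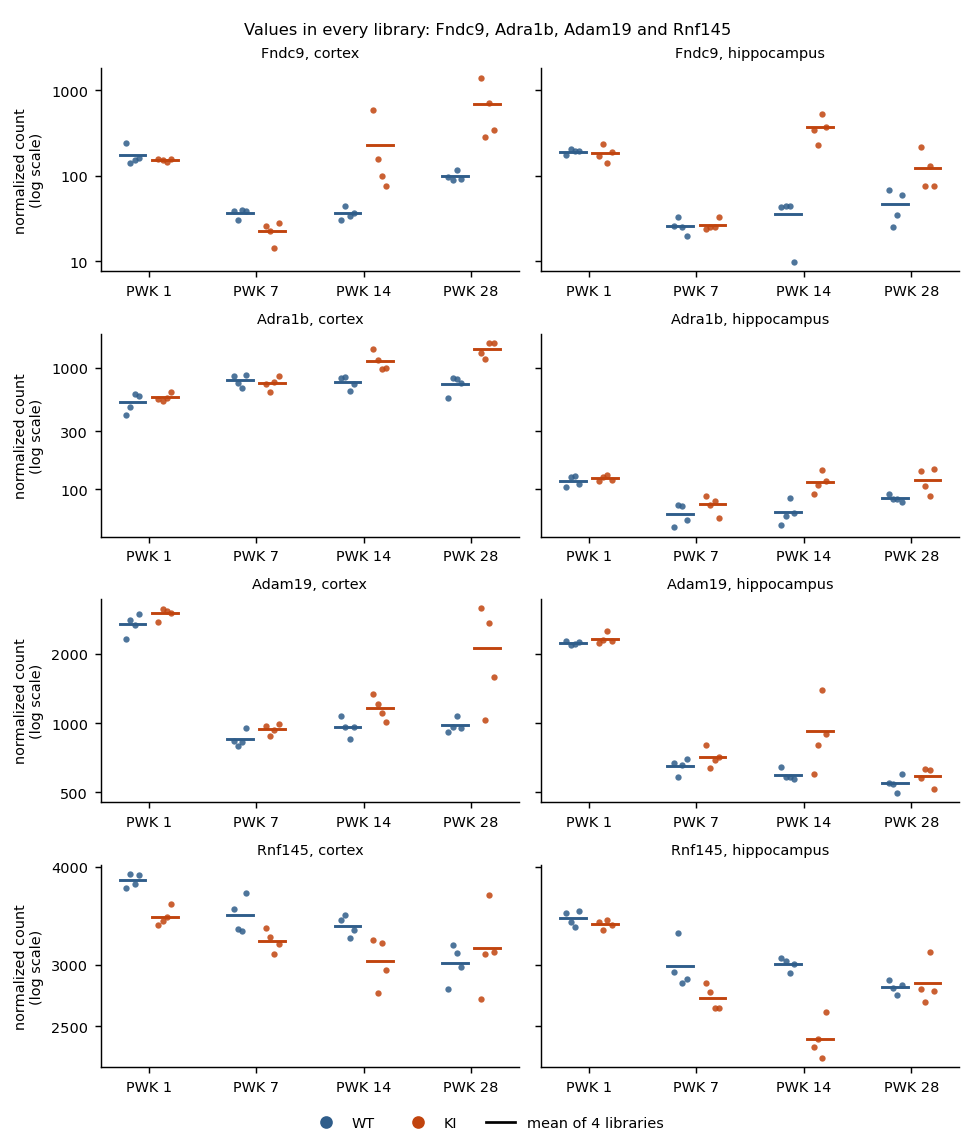
Normalized counts (log scale) of *Fndc9*, *Adra1b*, *Adam19* and *Rnf145* in each library by region and week, WT and KI side by side, with the group mean. *Fndc9* KI libraries lie above all WT libraries at PWK 14 and 28 in both regions and not at PWK 1 or 7.

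Among the other neighbours within 500 kb, *Adam19*, *Med7*, *Havcr2* and *Gm4926* were called in 1 comparison each. *Adam19*, a membrane metalloprotease that sheds growth factors such as neuregulin (46.5 kb), was at 916, 964, 1073 and 951 in WT and at 3149.9, 1033, 2731 and 1588 in KI cortex at PWK 28. KI replicates 1 and 3 were far above the WT libraries, and KI replicate 2 was among them. The log2 fold change was 0.99 (SE 0.28, adjusted p = 0.0307), and the adjusted p rose to as much as 0.0843 without KI replicate 1 or 3 or any 1 WT replicate and to 0.0671 with a robust estimate of the spread. *Adam19* was the only member with a positive effect in all 8 comparisons, between 0.06 and 0.99, and its mean effect over the 4 weeks was 0.39 for cortex (adjusted p = 0.00283) and 0.21 for hippocampus (adjusted p = 0.0196). Of all genes, 3.33% had the same sign in all 8.

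The same KI libraries stood high for *Lsm11* in cortex at PWK 28. This gene, which encodes a component of the U7 ribonucleoprotein that processes histone mRNA (249 kb), was at 3409.8, 1296, 3058 and 1493 in KI and between 1199 and 1355 in WT libraries. KI replicates 1 and 3 were again the highest, as they were for *Fndc9*, and the difference did not pass the test (log2 0.75, adjusted p = 0.0749). Summed inhibitory neuron markers (4 of 4 in the table, 3 called higher, beside 22.2% of all genes called) were between 26810 and 41332 in the KI and between 18296 and 24427 in the WT libraries of this comparison. Their part in these differences was not tested. In hippocampus the mean effect on *Lsm11* over the 4 weeks was -0.21 (adjusted p = 0.031), rising to 0.0509 without 1 library (PWK 7 WT replicate 1 or PWK 28 KI replicate 4).

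*Med7*, a subunit of the Mediator complex that links transcription factors to RNA polymerase II (124 kb), was at 408, 411, 413 and 401 in WT and at 498, 553, 773 and 503 in KI hippocampus at PWK 14. Every KI library was above every WT library, with a log2 change of 0.49 (SE 0.13, adjusted p = 0.0385). Without KI replicate 2 or any 1 WT replicate the adjusted p rose to as much as 0.0952. *Gm4926*, a long non-coding RNA gene (324 kb), was lower in the same comparison (log2 -1.28, adjusted p = 0.0373), a call that was lost in 7 of the 8 fits without 1 library (adjusted p up to 0.104, kept only without KI replicate 2). The remaining 3 neighbours were not called in any comparison. *Clint1*, an adaptor of clathrin-coated vesicles, lay between -0.05 and 0.15, *Thg1l*, which adds a guanylate to histidine tRNA, between -0.20 and 0.17, and *Nipal4*, a magnesium transporter, between -0.39 and 0.38 on the log2 fold change scale.

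*Havcr2* encodes the immune receptor TIM-3, which microglia express in brain (142 kb). In hippocampus at PWK 28 it was at 118, 96.7, 108 and 105 in WT and at 169, 163, 166 and 169 in KI libraries. All KI libraries were above all WT libraries and close to each other, with a log2 change of 0.64 (SE 0.11, adjusted p = 0.00335). The call held in every alternative run, and the effect was larger than in cortex by 0.70 on the log2 scale (adjusted p of the difference between regions 0.0167). Microglial markers moved with it: 4 of 6 were called higher (15.8% of all genes were called), and their sum was between 9664 and 10581 in KI and between 7574 and 8698 in WT libraries. At PWK 14, *Havcr2* was at 353 in KI replicate 1 and between 111 and 139 in the other KI libraries, beside 84.8 to 112 in WT (log2 0.73, adjusted p = 0.167). KI replicate 1 is the library with the high glial markers. The part of these markers in the *Havcr2* values was not tested.

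On the side of lower coordinates, 1 gene was called in more than 1 comparison. This was *Adra1b*, the alpha-1B adrenergic receptor, through which noradrenaline raises intracellular calcium (2293 kb). In cortex at PWK 14 it was at 822, 841, 647 and 737 in WT and at 1427, 1166, 980.4 and 994 in KI libraries (log2 0.57, SE 0.13, adjusted p = 0.0261). At PWK 28 it was at 568, 820.3, 815 and 748 in WT and at 1319.6, 1192, 1589 and 1601 in KI libraries (log2 0.95, SE 0.13, adjusted p = 0.00104). The groups did not overlap at either age. In hippocampus at PWK 14 it was at 50.5, 60.2, 84.6 and 63.6 in WT and at 90.5, 107, 143 and 117 in KI libraries (log2 0.82, SE 0.21, adjusted p = 0.0285).

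At PWK 1 and 7 the log2 fold change of *Adra1b* in cortex was 0.15 and -0.09 and that in hippocampus 0.08 and 0.26, with adjusted p between 0.87 and 0.963. Its effect differed between weeks in cortex (adjusted p = 0.00101), while in hippocampus a difference did not pass the test (adjusted p = 0.119). The cortical call at PWK 28 held in every alternative. At PWK 14 the adjusted p rose to as much as 0.0738 in cortex (without KI replicate 2 or WT replicate 1, 3 or 4) and 0.0842 in hippocampus (without KI replicate 2, 3 or 4 or WT replicate 1, 2 or 4).

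*Rnf145* was lower in KI hippocampus at PWK 14. It was at 3062, 3033, 2925 and 3006 in WT and at 2355, 2408, 2277 and 2607 in KI libraries. No KI library reached the lowest WT library, with a log2 change of -0.32 (SE 0.06, adjusted p = 0.00643), and the call held in every alternative. In cortex at PWK 14 every KI library (2758 to 3229) was also below every WT library (3245 to 3470), and the difference did not pass the test. *Rnf145* was lower in KI in 6 of the 8 comparisons, those of PWK 1, 7 and 14. At PWK 28 the log2 fold change was 0.06 in cortex and 0.02 in hippocampus. The effect in hippocampus differed between weeks (adjusted p = 0.0018). The mean over the 4 weeks was -0.11 in hippocampus (adjusted p = 0.000625) and -0.09 in cortex (adjusted p = 0.0406), the latter lost in 17 of the 32 fits without 1 library (adjusted p up to 0.0724).

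The other called genes of this side lay 2.4 to 3 Mb away. *Pttg1* (securin, which holds sister chromatids together until anaphase) was at 529, 503, 494 and 471 in WT and at 391, 412, 396 and 411 in KI hippocampus at PWK 14. The KI libraries were all below the WT libraries (log2 -0.31, SE 0.07, adjusted p = 0.0235), and the adjusted p rose to as much as 0.082 without WT replicate 1, 2 or 3. *Ttc1*, a protein with tetratricopeptide repeats, was at 928, 976, 915 and 1037 in WT and at 1231, 1052, 1209 and 1208 in KI cortex at PWK 28. KI replicate 2 was only just above the highest WT library, and the log2 fold change was 0.28 (SE 0.07, adjusted p = 0.0209, and up to 0.0644 without KI replicate 3 or WT replicate 1 or 3). *Slu7*, a splicing factor, was lower in hippocampus at PWK 28 (log2 -0.18, adjusted p = 0.0431, up to 0.119 without KI replicate 1, 2 or 4 or WT replicate 2, 3 or 4, and 0.16 with 1 spread estimated over all 64 libraries).

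*Gm12144*, an antisense gene within *Atp10b* and the member farthest out on this side, was at 12.9, 9.52, 10.8 and 12.9 in WT and at 2.62, 4.37, 2.58 and 2.56 in KI hippocampus at PWK 14. The groups did not overlap (log2 -1.65, SE 0.31, adjusted p = 0.00904). At such levels single reads weigh heavily, and 23.4% of its 31-base words are shared with *Atp10b*. Its effect in hippocampus differed between weeks (adjusted p = 0.00424) and from that in cortex at PWK 14 (by -2.24, adjusted p = 0.0345). The difference between regions lost its call without 1 of 11 of the 16 libraries (adjusted p up to 0.0737).

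**Figure D4:**
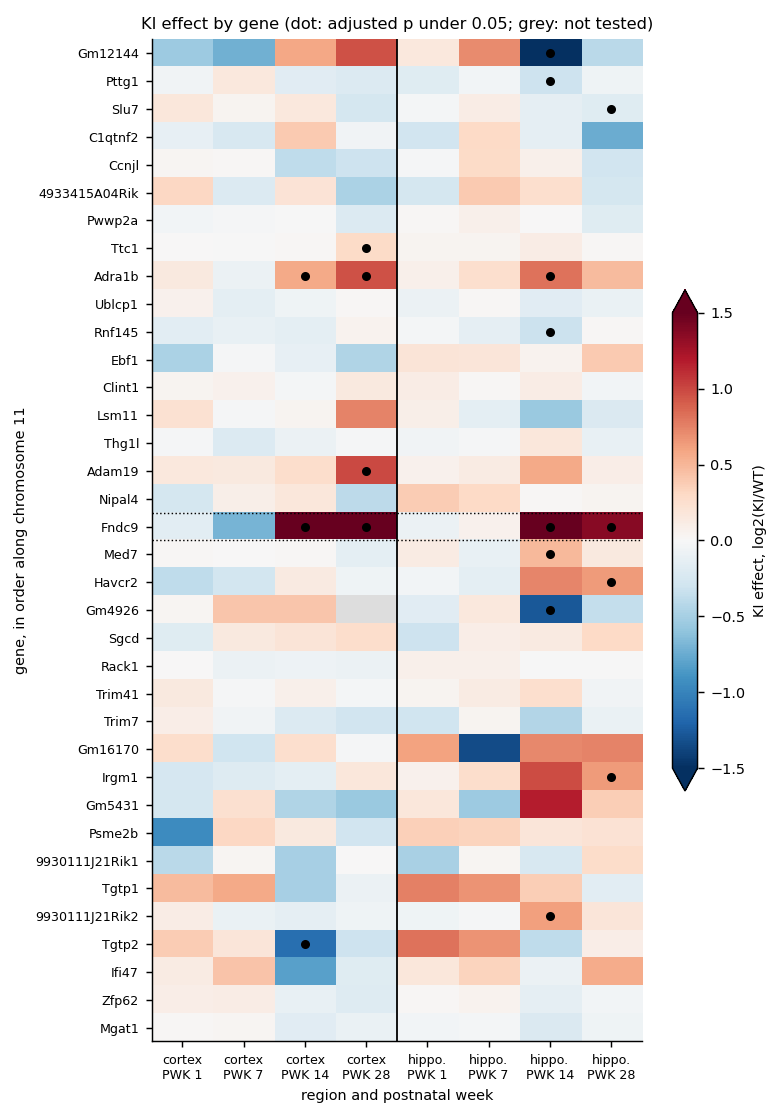
Log2 fold change, KI against WT, of 36 of the 37 members in order of position (vertical axis) in each of the 8 comparisons of region and week (horizontal axis), as a colour scale, with called values marked. The columns of PWK 1 and 7 hold no marked value, and only *Fndc9* and *Adra1b* are marked in more than 1 column.

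The interferon-inducible GTPase cluster had 7 members (*Irgm1*, *Gm5431*, *9930111J21Rik1*, *9930111J21Rik2*, *Tgtp1*, *Tgtp2* and *Ifi47*). In cortex 1 was lower at PWK 14 (5.18% of all genes were called) and 0 were called at PWK 28 (22.2% of all genes). In hippocampus 1 was higher at PWK 14 (15.6% of all genes) and 1 at PWK 28 (15.8% of all genes). With 7 members these counts are too small to set the cluster apart from all genes. The median log2 fold change of the 7 was -0.50, -0.09, 0.37 and 0.27 in these comparisons. *Irgm1*, which controls the other GTPases of the family and autophagy, was at 213, 189.9, 207 and 209 in WT and at 533, 258, 268 and 284 in KI hippocampus at PWK 28. KI replicate 1 was far above the other KI libraries, and all KI libraries were above the WT libraries. The log2 fold change was 0.64 (SE 0.20, adjusted p = 0.04996), a call at the very edge of the threshold that was lost in 4 of 7 other settings and in 5 of 8 fits without 1 library (KI replicate 4 or any 1 WT replicate, adjusted p up to 0.11). Without KI replicate 1 the log2 fold change was 0.40.

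At PWK 14, *Irgm1* was at 929, 291, 324 and 309 in KI and between 188 and 223 in WT hippocampus. Again no libraries overlapped and KI replicate 1 was the highest, and the difference did not pass the test (log2 0.98, adjusted p = 0.0733). The mean effect over the 4 weeks in hippocampus was 0.49 (adjusted p = 0.00261), and 0.39 without KI replicate 1 of PWK 14. In cortex the mean effect was -0.10 (adjusted p = 0.39).

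The other called GTPase genes share most of their sequence with a neighbour. *Tgtp2* was lower in cortex at PWK 14 (log2 -1.13, adjusted p = 0.0481), and since over 80% of the 31-base words of *Tgtp1* and *Tgtp2* are shared, the counting could split their reads. The sum of both genes was between 32.7 and 50.3 in KI and between 63.2 and 116 in WT libraries. *9930111J21Rik2* was higher in hippocampus at PWK 14 (log2 0.61, adjusted p = 0.0475), while its sum with *9930111J21Rik1* was between 152 and 322 in KI and between 126 and 179.9 in WT libraries. The calls were lost in 7 of 8 fits without 1 library each, *Tgtp2* in all but that without KI replicate 3 (adjusted p up to 0.132) and *9930111J21Rik2* in all but that without KI replicate 2 (adjusted p up to 0.128). Scaling to equal library sums also ended both calls (adjusted p = 0.0541 and 0.0606). The remaining GTPase genes were called in no comparison of genotypes, with log2 fold changes from -0.81 to 0.56 for *Ifi47*, from -0.50 to 0.75 for *Tgtp1*, from -0.56 to 1.18 for *Gm5431* and from -0.50 to 0.27 for *9930111J21Rik1*.

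**Figure D5:**
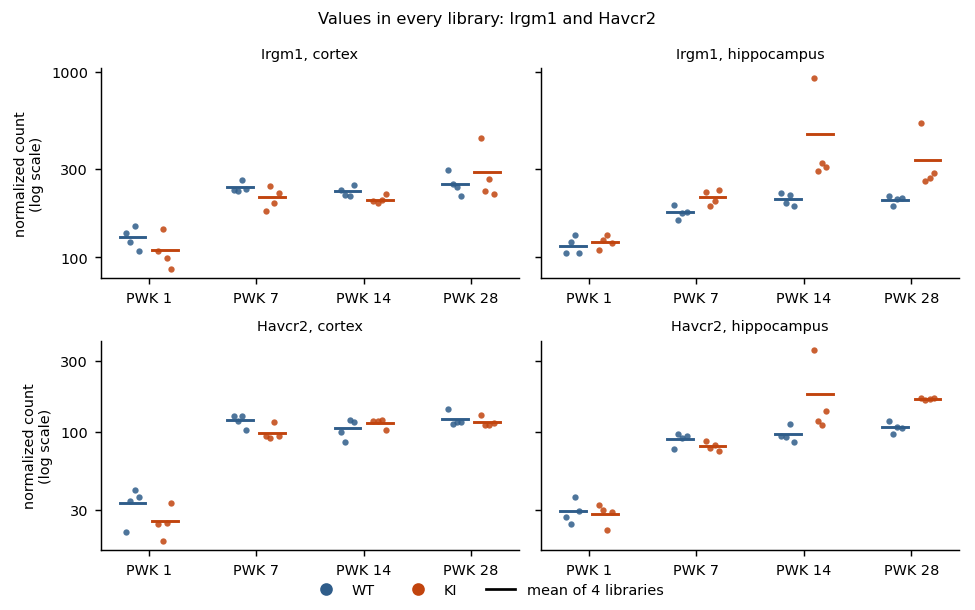
Normalized counts (log scale) of *Irgm1* and *Havcr2* in each library by region and week, WT and KI side by side, with the group mean. In hippocampus, KI replicate 1 at PWK 14 is the highest library of *Irgm1* and *Havcr2*, and at PWK 28 the 4 KI libraries of *Havcr2* lie between 163 and 169.

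Interferon-response genes elsewhere in the genome gave a background for the GTPases. Of 18 such genes, 0 were called at PWK 1 or 7 (at most 0.0218% of all genes) or in cortex at PWK 14 (5.18% of all genes). In cortex at PWK 28, where 22.2% of all genes were called, *Irf7* (log2 1.80, adjusted p = 0.00454) and *Bst2* (log2 1.00, adjusted p = 0.017) were higher. *Irf9* was lower there (log2 -0.38, adjusted p = 0.0421). In hippocampus at PWK 14, where 15.6% of all genes were called, *Bst2* was higher (log2 1.27, adjusted p = 0.0455). At PWK 28, where 15.8% of all genes were called, *Irf7* (log2 1.40, adjusted p = 0.0459) and *Bst2* (log2 0.98, adjusted p = 0.0375) were higher in hippocampus. The summed level of these 18 genes in hippocampus at PWK 28 was 13196 in KI replicate 1, between 5951 and 6409 in the other KI libraries and between 5256 and 5752 in WT, and at PWK 14 it was 13643 in KI replicate 1, between 5046 and 6124 in the other KI libraries and between 4914 and 5518 in WT. The part of these libraries in the *Irgm1* values was not tested beyond the fits that leave one out.

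The remaining members of the lower side were not called in any of the 12 genotype tests (8 comparisons and 4 means over weeks). *Ebf1*, a transcription factor of B cells and striatal neurons, lay between -0.47 and 0.40, *Pwwp2a*, a reader of histone H2A.Z nucleosomes, between -0.21 and 0.07, *Ublcp1*, a phosphatase of the proteasome, between -0.17 and 0.06, and *Ccnjl*, a cyclin-like gene, between -0.38 and 0.29 on the log2 scale. *C1qtnf2*, a secreted C1q/TNF-related protein, lay between -0.74 and 0.39 and *4933415A04Rik* between -0.48 and 0.39.

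On the higher side, the abundant *Rack1*, a scaffold of the small ribosomal subunit, stayed between -0.09 and 0.08 in all 8 comparisons. *Mgat1*, which starts the processing of hybrid and complex N-glycans, lay between -0.22 and 0.03 and *Zfp62*, a zinc finger gene, between -0.20 and 0.11. The ubiquitin ligase genes *Trim41* and *Trim7* lay between -0.05 and 0.25 and between -0.44 and 0.10. *Sgcd*, a sarcoglycan of the dystrophin complex, lay between -0.31 and 0.30, and the weak *Gm16170* and *Psme2b* between -1.35 and 0.74 and between -0.94 and 0.35. In all, 21 of 37 members were called in none of the 12 tests, and 14 of these stayed within -0.5 and 0.5 in every comparison.

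The calls at PWK 14 and 28 were also grouped by role, in lists so small that 1 call is a large share of a list, while 5.18% to 22.2% of all genes were called in these comparisons. The immune receptor gene *Havcr2* was higher in hippocampus at PWK 28. Among 8 members with roles in transcription, chromatin or mRNA, 1 was higher in hippocampus at PWK 14 (*Med7*) and 1 lower at PWK 28 (*Slu7*). Of the 3 ubiquitin ligase genes 1 was lower in hippocampus at PWK 14 (*Rnf145*), and of the 2 cell cycle genes 1 was lower there (*Pttg1*). Of the 2 signalling genes, *Adra1b* was called 3 times and *Rack1* not at all, and the 2 genes of glycosylation and secretion (*Mgat1* and *Clint1*) were not called.

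Whether effects held at all weeks was then compared directly. The sign of the genotype effect was the same in all 8 comparisons for 1 of the 36 members tested in all of them (*Adam19*) and in at least 7 for 5 (*Adam19*, *Pttg1*, *Ttc1*, *Adra1b* and *Thg1l*; 16.6% of all genes). It was the same at all 4 weeks for 4 members in cortex (19.3% of all genes) and 9 in hippocampus (17.6% of all genes). In at least 1 of the 8 comparisons 15 of 37 members were called (37% of all genes), and only *Fndc9* (4 comparisons) and *Adra1b* (3 comparisons) were called in more than 1.

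The mean effect over the 4 weeks was called for 6 of 37 members in cortex (20.1% of all genes) and 8 of 37 in hippocampus (23.3% of all genes). These means share their libraries with the single comparisons. *Fndc9* had the largest, 0.95 for cortex (adjusted p = 0.00131) and 1.21 for hippocampus (adjusted p = 1.73e-05), followed among called members in hippocampus by *Irgm1* and *Adra1b* (0.41, adjusted p = 0.00102) while in cortex the mean effect on *Adra1b* was 0.40 (adjusted p = 9.28e-05). The effect differed between weeks for 6 members in cortex (16.6% of all genes) and 4 in hippocampus (18% of all genes). It differed between regions for 1 member at PWK 14, *Gm12144* (2.85% of all genes), and 1 at PWK 28, *Havcr2* (4.57% of all genes).

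In WT mice most members changed with age. Between PWK 1 and 7, 26 of 37 changed in cortex (16 rose and 10 fell, 65.3% of all genes were called) and 24 in hippocampus (15 rose and 9 fell, 61.3% of all genes). *Fndc9* fell by 2.20 in cortex and 2.86 in hippocampus on the log2 scale, *Lsm11* fell by 3.53 and 2.62, and *Adam19* fell by 1.66 and 1.77. *Cyfip2* itself rose by 0.98 and 1.00 over the same time. *Nipal4* rose by 1.91 and 3.18, and the microglial receptor gene *Havcr2* by 1.85 and 1.58. In WT mice from PWK 7 to 28, 20 members differed between the regions (8 higher and 12 lower in hippocampus, 58.5% of all genes). *Adra1b* differed most, with a log2 difference of -3.44, at 226 normalized counts per kb of exon in cortex and 20.9 in hippocampus, while *Gm4926* was 2.79 higher in hippocampus.

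At the edges of the window, *Gm12144* and *Pttg1*, the members nearest the lower edge, had log2 fold changes between -1.65 and 0.95 and between -0.31 and 0.16 over the 8 comparisons. The next genes of the table that start beyond it, *Atp10b* (44 kb from the edge) and *Gabrb2* (774 kb), had values between -0.68 and 0.39 and between -0.20 and 0.10. *Atp10b* runs across the edge into the window, where *Gm12144* lies within it. At the upper edge, *Mgat1* and *Zfp62* were the last members inside, with the values above, and *Flt4* (296 kb beyond, -0.28 to 0.79) and *Cnot6* (359 kb beyond, -0.39 to 0.12) the next outside.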

How the data were processed

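RNA was sequenced from frontal cortex and hippocampus with a stranded Illumina kit, on which the labels (mRNA) and the study's methods (total RNA) differ. The authors estimated transcript abundance with Salmon on GRCm38 (version 0.11.2 per the submitters' processing notes, while the study's methods name another version), summed it to genes with tximport and scaled it with DESeq2. The deposited signal is this normalized count, not a raw count, for 18432 genes in 64 libraries. The lowest mean of any gene was 4.25, so weaker genes had been removed. Whole reads were not recovered, since only 23.5% to 49.1% of low values lay within 0.1 of a whole read, so no count model was run and no counting intervals are given. Precision rests on the 4 mice per group, and p-values measure the spread between them.

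Each comparison was fitted with limma-trend (limma 3.58.1, R 4.3.3) on log2(value + 1) over all genes with a mean of at least 1 in its libraries, and p-values were adjusted over all of them by Benjamini-Hochberg, with 0.05 as the threshold for a call. Single weeks used their 8 libraries. Means over weeks, differences between weeks and WT age comparisons used the libraries of a region, and differences between regions those of a week. The main fits of differences between regions held no term for the mouse, so any pairing of regions was not used. The scripts were checked on simulated data. A pass was required only where the groups shared the same spread, so the check does not vouch for groups of unequal spread. Gene positions were looked up by Ensembl ID in GENCODE (GRCm38), where 18420 IDs matched, and shared sequence from its transcripts. The members and gene lists were chosen with earlier results of these data known. Named genes are those called in any of the 12 genotype tests (values per library for the 12 with the lowest adjusted p), those within 500 kb, those at the window's edges and those of the role lists. *Cyfip2*, and *Prox1* and *Cux2* from the marker lists, were added as checks. For 1 member the values are not reported here, and it is included in the counts.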

Additional observations from a re-analysis of the deposited data

Results flagged for a closer look

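In 6 of the 42 groups of 4 libraries behind the called values, 1 library stood apart, with its gap to the nearest library, as a share of the group's range, above Dixon's critical value for groups of 4. Chance gives about 1 in 20 groups. In KI mice these were *Fndc9* in cortex at PWK 14 (0.842, replicate 1 at 587 against 75.4 to 156), *Ttc1* in cortex at PWK 28 (0.872, replicate 2 at 1052 against 1208 to 1231), *Gm12144* in hippocampus at PWK 14 (0.971, replicate 2 at 4.37 against 2.56 to 2.62) and *Irgm1* in hippocampus at PWK 28 (0.906, replicate 1 at 533 against 258 to 284). In WT mice they were *Fndc9* (0.953, replicate 4 at 9.79 against 42.8 to 44.5) and *Gm4926* (0.856, replicate 4 at 25.9 against 16.9 to 18.2), both in hippocampus at PWK 14 and in the same library.

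The genotype effect differed between weeks in cortex, by limma's adjusted p, for *Cyfip2* (0.000161), *Fndc9* (0.000197), *Adra1b* (0.00101), *Ttc1* (0.012), *Slu7* (0.0214), *Zfp62* (0.0424) and *Adam19* (0.0476). In hippocampus it differed for *Fndc9* (2.5e-05), *Rnf145* (0.0018), *Gm12144* (0.00424) and *Med7* (0.0229). Between regions it differed for *Gm12144* at PWK 14 (0.0345) and, at PWK 28, for *Havcr2* (0.0167) and *Cyfip2* (0.0444). The differences between weeks of *Adam19* and *Zfp62* were lost in 27 and 19 of the 32 fits without 1 library (adjusted p up to 0.161 and 0.0893; that of *Adam19* also when scaled to equal library sums, at 0.0582, and with a robust estimate of the spread, at 0.0669), and that of *Slu7* in 4 (up to 0.0679, without PWK 28 KI replicate 4 or WT replicate 2, 3 or 4). That of *Gm12144* between regions was lost in 11 of 16 (up to 0.0737).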

How the results depend on the processing

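For the 106 called values of single members that have a sign, 2102 values under other settings kept their direction, and 176 of them no longer passed the threshold. For the 10 differences between weeks, which have none, 53 of 379 no longer passed. The member counts of 0 at PWK 1, PWK 7 and their mean stayed 0 in every alternative. A window of 1 Mb holds 11 members and gave, by that construction, 1 call in cortex at PWK 14, 3 there at PWK 28, 3 and 2 in the hippocampus, and 3 and 4 for the means over 4 weeks. Without a filter on low values, 1 member was called in cortex at PWK 14 (789 of all genes, against 951). With the spread estimated over all 64 libraries at once, 10 members were called in cortex at PWK 28 (6114 of all genes, against 4081) and 14 in hippocampus at PWK 14 (6050 of all genes, against 2870). For differences between regions, a mean of at least 50 left 0 members at PWK 14 (562 of 14064 genes were called, against 525 of 18424).

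Leaving out 1 library gave 0 to 3 calls in cortex at PWK 14 and 2 to 9 at PWK 28. In hippocampus it gave 3 to 9 at PWK 14 and 1 to 5 at PWK 28. Like those over all genes, these counts depended on single libraries. They moved by over 1.5 times without KI replicate 2 or any 1 WT replicate, without any 1 replicate other than KI replicate 4 and WT replicate 1, without KI replicate 4 or any 1 WT replicate, and without KI replicate 1 or 4 or WT replicate 2, 3 or 4. It gave 4 to 7 and 8 to 12 for the means over 4 weeks, 3 to 8 (3 without PWK 28 WT replicate 3 or 4) and 4 to 7 (7 without PWK 14 KI replicate 2) for differences between weeks, and 0 to 2 and 1 to 3 for differences between regions at PWK 14 and 28. At PWK 14 that was 0 without any of 11 of the 16 libraries and 2 without hippocampal KI replicate 1, and at PWK 28 it was 3 and 2 without cortical KI replicates 2 and 4. The WT counts ranged from 23 to 28 and 22 to 26 between ages and from 19 to 23 between regions. Calls over all genes moved in the same fits. Without WT replicate 1 at PWK 14 they were 339 in cortex (against 951) and 1456 in hippocampus (against 2870). At PWK 28 they were 5090 in cortex without KI replicate 2 (against 4081), where 9 members were called. In hippocampus at PWK 28 they were 2000 without WT replicate 4 (against 2911).

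Equal replicate numbers were not shown to pair mice. Deviations of KI and WT libraries with the same number correlated at 0.026 on average, against -0.009 for different numbers, with 10 of 32 pairs over 0.1, and 22 of 64 libraries correlated best with their own number. Cortex and hippocampus of 1 number correlated at 0.140 on average, against -0.046 for different numbers, with 17 of 32 pairs over 0.1. With the replicate number as a block, 4 members instead of 8 were called in hippocampus at PWK 14 (1788 of all genes, against 2870). The calls lost there were those of *Pttg1* (limma adjusted p = 0.0824), *Med7* (0.0595), *Gm4926* (0.0737) and *9930111J21Rik2* (0.0927). In hippocampus at PWK 28 the block also ended the call of *Slu7* (adjusted p = 0.0619). With equal numbers of both regions taken as 1 mouse, which no label states, 2 instead of 1 differed between regions at PWK 28 (1259 of all genes, against 841). Other blocked counts stayed within 1.5 times. The cause of these shifts was not tested.

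The tests assume 1 spread per comparison. The median SD of genes on the log2 scale was between 0.160 and 0.217 in KI groups at PWK 14 and 28 and between 0.116 and 0.138 in WT groups. With 4 mice per group, small effects on weak genes were not detectable.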
